A study of Mus musculus with 4 samples.

Results

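The genes of the astrocytic water channel aquaporin-4 and of proteins that hold it at the endfoot membrane were examined by RNA sequencing in mouse astrocytes given an shRNA against Phf8. The set comprises 8 genes of the 55421 listed in the count tables, chosen by symbol: Aqp4, Dag1, Dmd, Dtna, Utrn, Mlc1, Hepacam and Agrn. It was compared between 2 libraries of astrocytes infected with a lentivirus carrying the Phf8 shRNA (replicates 1 and 2) and 2 libraries of astrocytes infected with a lentivirus carrying a control shRNA (replicates 1 and 2). All 4 cultures were C57BL/6J neural stem cells that had been differentiated into astrocytes in medium with serum, and the labels name no vascular cells in them. An shRNA is a hairpin RNA that directs the silencing of its target transcript, and Phf8 encodes a histone lysine demethylase. The labels give neither the hairpin sequences nor the number of hairpins used. The replicates are described as biological, but no source states that each came from its own culture or infection. The p-values therefore reflect the spread among these 4 samples alone, and that spread may be technical.

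Aquaporin-4 carries most of the water that crosses the astrocyte membrane in the brain, and it is concentrated on the endfeet that surround blood vessels. It is held there by the dystrophin-associated complex. Dystroglycan (Dag1) spans the membrane and binds laminin, agrin (Agrn) and perlecan outside the cell, and inside the cell it binds dystrophin (Dmd) or its relative utrophin (Utrn). Dystrobrevin (Dtna) and the syntrophins attach to dystrophin, and the syntrophins link the complex to aquaporin-4. MLC1 and the adhesion protein GlialCAM (Hepacam) form another membrane complex of endfeet and of contacts between astrocytes, and mutations in either gene cause a leukodystrophy with swollen white matter.

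The libraries held 36839530 to 44724759 reads assigned to genes. Levels are CPM, read counts divided by the library's depth and put on the usual counts-per-million scale, with TMM scaling (the trimmed mean of M-values), and changes are log2 fold changes of Phf8 shRNA over control shRNA from edgeR's quasi-likelihood test, fitted on 21042 genes and adjusted by Benjamini-Hochberg over all of them. Phf8 itself stood at 44.3 and 42.3 CPM in Phf8 shRNA libraries and at 53.3 and 53.0 CPM in control libraries (log2 fold change -0.30 ± 0.06 SE). Of 15 astrocyte markers, 15 passed the low-count filter, and the most abundant were Apoe, Gfap and Slc1a3. Their summed level was 9162 to 10006 CPM in Phf8 shRNA libraries and 12347 to 12897 CPM in control libraries. Of these markers 9 fell, 4 rose and 2 did not pass (86.7% called, against 52.1% of all genes tested, at an adjusted p under 0.05). The sum is weighted by Gfap, which stood at 1319 and 1024 CPM in Phf8 shRNA libraries and at 4079 and 3863 CPM in control libraries. Slc1a2, named after its values were seen, was the most abundant of the 4 that rose (968 and 982 CPM, against 136 and 135 CPM). The summed level therefore does not describe each marker. Microglial markers summed to 6.04 to 6.18 CPM and 8.46 to 8.92 CPM in the same order of groups, with C1qa, C1qb and Trem2 at 0 reads in all libraries. Most of that sum was P2ry12 (2.84 and 2.78 CPM, against 2.38 and 2.52 CPM) and Cd68 (2.61 and 2.37 CPM, against 5.25 and 5.84 CPM). Cd68 was the 1 called, as lower, of 4 tested (25%, against 52.1% of all genes tested). The mitochondrial ribosomal RNAs took 27.8% and 28.2% of the reads of Phf8 shRNA libraries and 21.2% and 22.5% of those of control libraries.

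The set moved in both directions. Aqp4, Mlc1, Utrn and Dag1 were lower with Phf8 shRNA, while Dtna, Hepacam and Dmd were higher, and Agrn did not pass the test. All 8 genes passed the low-count filter and 7 of them were called at an adjusted p under 0.05, against 52.1% of all genes tested. The 3 genes that rose compare with 24.8% of all genes that rose, and the 4 that fell with 27.3% that fell. Over all genes, TMM scaling gave 5225 higher and 5740 lower calls and upper-quartile scaling 6640 higher and 4811 lower, while the same 3 of the 8 genes rose and the same 4 fell under both. Among the 8824 protein-coding genes that averaged 10 CPM or more, a range that holds all 8 genes, 64.6% were called. Aqp4 and Mlc1 fell more than 2-fold, as did 8.71% of all genes tested, and none of the 8 rose 2-fold or more, as 5.5% of all genes did. Changes of that size in either direction were found in 14.2% of all genes. The libraries of both groups did not overlap for any of the 8 genes, nor for 73.9% of all genes tested. Such calls include small differences, because the spread between replicate libraries was low (common biological coefficient of variation 3.64%). When that coefficient was set to 0.2, 2 of the 8 genes, Aqp4 and Mlc1, were still called, against 15.7% of all genes tested at that setting.

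**Figure D1:**
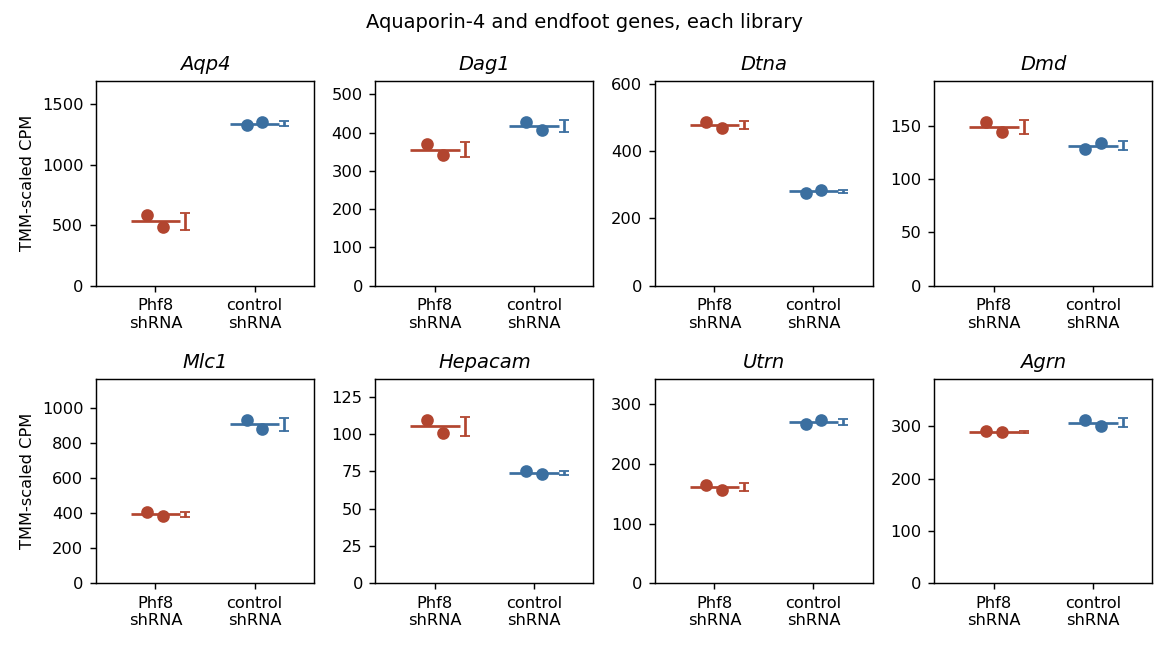
TMM-scaled CPM (linear axis from 0) of the 8 genes in each library, with Phf8 shRNA on the left and control shRNA on the right of each panel; points are libraries, horizontal lines are means and the bars beside them are ± 1 SD of 2 libraries. The gap between groups is widest for Aqp4 (582 and 482 CPM, against 1323 and 1351 CPM) and narrowest for Agrn (291 and 288 CPM, against 313 and 301 CPM).

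Aqp4 (ENSMUSG00000024411, minus strand of chromosome 18, 15389496 to 15410982 in mm10) is the water channel itself. It had 582 and 482 CPM in Phf8 shRNA libraries, against 1323 and 1351 CPM in control libraries. Both Phf8 shRNA libraries were low, and they lay further apart (532 ± 71.3 CPM, SD, n = 2) than the control libraries (1337 ± 20.0 CPM, SD, n = 2). The transcript fell 2.51-fold (log2 fold change -1.33 ± 0.06 SE, adjusted p = 2.4e-96, edgeR's quasi-likelihood test). The size of this change exceeded that of 91.0% of the genes tested. Leaving out each library in turn gave log2 fold changes of -1.47 to -1.20. In bulk RNA, fewer cells that express a gene and less transcript per cell cannot be told apart.

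Markers of other cell types moved beside these changes. Over all genes tested, 24.8% rose and 27.3% fell. Aqp4 is also known in ependymal cells, and of 12 ependymal and motile cilia markers 9 passed the filter and all 9 fell, with a summed level of 37.0 to 38.6 CPM in Phf8 shRNA libraries and 239 to 245 CPM in control libraries. Foxj1, the transcription factor of motile cilia, was the most abundant of them (29.0 CPM, against 139 CPM), and Tmem212 had no read in any library. Oligodendrocyte lineage markers rose in 13 of 14 tested and summed to 1365 to 1421 CPM, against 786 to 831 CPM in control libraries. Neuronal markers rose in 9 of 10 tested (1953 to 1957 CPM, against 1183 to 1223 CPM), and 4 of the 14 listed were not tested. Most of the neuronal sum was Map2 (1390 and 1379 CPM, against 902 and 936 CPM). Progenitor markers fell in 6 and rose in 4 of 11 tested (2895 to 3221 CPM, against 7110 to 7270 CPM). That sum is weighted by Vim (1353 and 1192 CPM, against 5385 and 5192 CPM). Endothelial and mural markers fell in 5 and rose in 1 of 9 tested (26.3 to 26.7 CPM, against 28.4 to 28.7 CPM), with Cdh5 at 0 reads. The gene that rose, Pdgfrb, made up most of that sum in Phf8 shRNA libraries (mean 23.9 CPM, against 9.54 CPM). The 5 that fell included Acta2 (mean 0.436 CPM, against 8.81 CPM), so the similar sums do not show a stable level of these markers. Fibroblast markers fell in 3 and rose in 2 of 6 tested (194 to 196 CPM, against 180 to 183 CPM). That sum is mostly Pdgfra (mean 187 CPM, against 155 CPM), which is also in the oligodendrocyte lineage list. The 3 that fell included Col6a1 (mean 0.0504 CPM, against 11.7 CPM), so the sums do not show the level of the other fibroblast markers. The part of these cell types in the changes of Aqp4 and its anchoring genes was not tested.

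The inwardly rectifying potassium channel Kcnj10, which is concentrated with aquaporin-4 on endfeet, had 78.6 and 77.0 CPM in Phf8 shRNA libraries, against 192 and 190 CPM in control libraries. It fell 2.45-fold (log2 fold change -1.29 ± 0.06 SE, adjusted p = 4.9e-112, edgeR's quasi-likelihood test). The ratio of Aqp4 to Kcnj10 reads per kilobase of exon was 6.43 and 5.43 in Phf8 shRNA libraries and 5.99 and 6.17 in control libraries, so that the groups overlapped in this ratio. Among the other aquaporin genes, 5 of 11 passed the low-count filter, 1 rose and 1 fell (40% called, against 52.1% of all genes tested). Aqp11, an intracellular aquaporin, rose 1.33-fold (5.30 and 5.26 CPM, against 3.81 and 4.13 CPM), and the lower gene was Aqp5, named after its values were seen, at 8 and 11 reads against 27 and 26 reads. DESeq2 called neither gene, and 1 of the list was called without control replicate 1, and likewise without Phf8 shRNA replicate 1. Aqp1, the water channel of the choroid plexus, had 24 and 12 reads in Phf8 shRNA libraries and 21 and 25 in control libraries (adjusted p = 0.53, edgeR's quasi-likelihood test). The summed level of the other aquaporins was 9.41 to 9.43 CPM in Phf8 shRNA libraries and 7.998 to 8.16 CPM in control libraries, far below Aqp4.

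Mlc1 and Hepacam, whose products bind each other, changed in opposite directions. Mlc1 (ENSMUSG00000035805, minus strand of chromosome 15, 88955884 to 88979007) encodes a membrane protein found almost only in astrocytes in the brain. It had 405 and 385 CPM in Phf8 shRNA libraries, against 933 and 881 CPM in control libraries, and fell 2.30-fold (log2 fold change -1.20 ± 0.06 SE, adjusted p = 1.4e-83, edgeR's quasi-likelihood test). Hepacam (ENSMUSG00000046240, plus strand of chromosome 9, 37367351 to 37386575) encodes GlialCAM, which brings MLC1 and the chloride channel ClC-2 to cell contacts. It had 110 and 101 CPM in Phf8 shRNA libraries, against 75.2 and 73.3 CPM in control libraries. Hepacam thus rose 1.42-fold (log2 fold change 0.50 ± 0.06 SE, adjusted p = 1.8e-18, edgeR's quasi-likelihood test). The ratio of Hepacam to Mlc1 reads per kilobase was 0.227 and 0.219 in Phf8 shRNA libraries and 0.0674 and 0.0696 in control libraries, a 3.25-fold higher mean that does not depend on the scaling of the libraries. The ratio of Aqp4 to Mlc1 was 0.646 and 0.562 in Phf8 shRNA libraries and 0.637 and 0.689 in control libraries, and here the groups overlapped. With 2 libraries against 2, an exact two-sided permutation test of such a ratio cannot give a p below 0.333.

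Among 15 partners of MLC1 and GlialCAM (the ClC-2 channel, the receptor GPRC5B, volume-regulated anion channel subunits, sodium pump subunits, connexins, caveolin, Kcnj10 and TRPV4), 14 were tested, of which 5 rose, 6 fell and 3 did not pass. Thus 78.6% were called, against 52.1% of all genes tested. Clcn2, which encodes ClC-2, rose 1.46-fold (26.7 and 26.6 CPM, against 18.7 and 17.9 CPM). Gprc5b, a receptor gene also mutated in this leukodystrophy, rose 1.22-fold (244 and 231 CPM, against 197 and 194 CPM), although 13.1% of its exon sequence is shared with an opposite-strand gene. Atp1b1, a sodium pump beta subunit found in the MLC1 complex, fell 2.14-fold (38.6 and 32.6 CPM, against 79.3 and 73.5 CPM), and 18.7% of its exon sequence is shared with an opposite-strand gene. Cav1, which encodes caveolin-1, fell 14.9-fold to 0.879 and 0.681 CPM in Phf8 shRNA libraries, against 12.1 and 11.4 CPM in control libraries. Trpv4, a calcium channel that senses cell swelling, had 28 and 18 reads, against 18 and 19 reads (adjusted p = 0.38, edgeR's quasi-likelihood test).

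**Figure D2:**
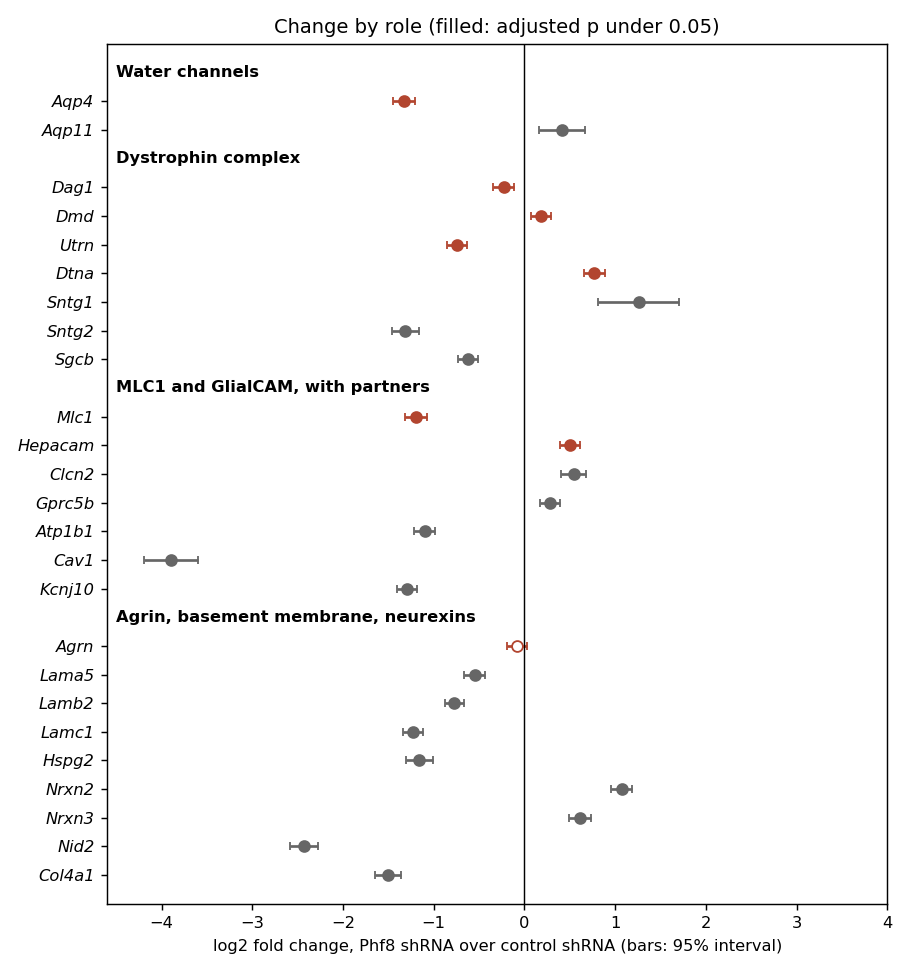
Log2 fold change of Phf8 shRNA over control shRNA (x axis) of the 8 genes (red) and of partner genes named in the text that averaged 1 CPM or more (grey), grouped by role. The grey genes are other aquaporins, dystrophin complex genes, partners of MLC1 and GlialCAM, and matrix genes with neurexins. The named glycosylation and agrin signalling genes are not drawn. Bars are 95% intervals from the standard error, and filled points had an adjusted p under 0.05. Aqp4 and Mlc1 lie near -1.33 and -1.20, Hepacam and Dtna lie above 0, and the interval of Agrn (-0.20 to 0.03) spans 0.

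Dag1 (ENSMUSG00000039952, minus strand of chromosome 9, 108204634 to 108263958) encodes dystroglycan, the receptor at the core of the complex. It had 370 and 341 CPM in Phf8 shRNA libraries, against 428 and 406 CPM in control libraries. The log2 fold change was -0.23 ± 0.06 (SE), or 1.17-fold lower (adjusted p = 2.4e-04, edgeR's quasi-likelihood test), and its size exceeded that of 39.0% of the genes tested. The ratio of Aqp4 to Dag1 reads per kilobase was 1.61 and 1.44 in Phf8 shRNA libraries and 3.15 and 3.40 in control libraries.

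The dystrophin and utrophin genes, paralogs whose products occupy the same site on dystroglycan, changed in opposite directions. Utrn (ENSMUSG00000019820, minus strand of chromosome 10, 12382188 to 12869365) had 165 and 157 CPM in Phf8 shRNA libraries, against 266 and 274 CPM in control libraries. It fell 1.68-fold (log2 fold change -0.75 ± 0.06 SE, adjusted p = 2.6e-38, edgeR's quasi-likelihood test). Dmd (ENSMUSG00000045103, plus strand of chromosome X, 82948870 to 85206141) had 154 and 144 CPM in Phf8 shRNA libraries, against 129 and 134 CPM in control libraries. Dmd was higher by a log2 fold change of 0.18 ± 0.06 (SE, adjusted p = 0.0028, edgeR's quasi-likelihood test), a 1.13-fold difference that no longer passed without control replicate 1 (0.14, adjusted p = 0.099). The ratio of Utrn to Dmd reads per kilobase of exon was 1.498 and 1.51 in Phf8 shRNA libraries and 2.88 and 2.84 in control libraries, 1.90-fold lower with Phf8 shRNA.

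The counts add up all transcripts of a gene, which bears most on Dmd and Agrn. GENCODE M21 lists a Dmd transcript of 14910 nt with 79 exons and shorter ones of 4438 and 1858 nt that begin near the end of the gene and encode C-terminal dystrophins, the kind best known in astrocytes. For Agrn it lists a transcript that begins at 156197488 and 3 that begin at 156185901, and agrin is known to be made as a secreted form and as a form with a transmembrane start. RefSeq (GRCm38.p6) places its nearest starts at 82948870 and 85048295 for Dmd and at 156197488 and 156186259 for Agrn. The 150 bases before each RefSeq start, on the strand of the gene, are shown because reads from either start enter 1 count. Capitals mark CG dinucleotides.
Dmd upstream start (chrX:82948720-82948869, plus strand): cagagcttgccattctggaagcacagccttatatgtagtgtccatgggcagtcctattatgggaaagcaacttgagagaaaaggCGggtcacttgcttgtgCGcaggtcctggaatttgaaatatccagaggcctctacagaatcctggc
Dmd downstream start (chrX:85048145-85048294, plus strand): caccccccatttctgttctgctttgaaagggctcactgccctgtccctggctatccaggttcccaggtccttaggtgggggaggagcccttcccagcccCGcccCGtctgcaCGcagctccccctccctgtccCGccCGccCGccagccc
Agrn upstream start (chr4:156197489-156197638, minus strand): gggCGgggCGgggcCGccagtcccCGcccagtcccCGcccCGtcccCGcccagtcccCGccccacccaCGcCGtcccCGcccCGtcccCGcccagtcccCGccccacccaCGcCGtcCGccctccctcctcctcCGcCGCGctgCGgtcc
Agrn downstream start (chr4:156186260-156186409, minus strand): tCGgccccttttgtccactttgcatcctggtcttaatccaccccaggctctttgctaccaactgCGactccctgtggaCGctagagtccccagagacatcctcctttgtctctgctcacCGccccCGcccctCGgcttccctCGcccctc

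The windows differ in CG content. The Agrn upstream window holds 21 CG dinucleotides, a number that 5.12% of the 32851 RefSeq windows of this length reach, and the median window holds 4. Its downstream window holds 7. The Dmd downstream window holds 6 and the Dmd upstream window 2, a number that 70.7% of all windows reach. On either strand, GGGCGG, the GC box, is present in the Agrn windows and in the Dmd downstream window, as in 28.6% of all windows. The motif itself contains a CG dinucleotide, so its presence is not independent of the CG counts. TATAAA (7.57% of all windows), CCAAT (24.5%) and TGACTCA (2.84%) are in none of these 4 windows. The table held windows for 6 of the 8 genes.

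Dtna (ENSMUSG00000024302, plus strand of chromosome 18, 23415135 to 23659715) encodes alpha-dystrobrevin, which binds dystrophin and carries syntrophins. It rose the most of the set. It had 487 and 470 CPM in Phf8 shRNA libraries, against 277 and 285 CPM in control libraries, and rose 1.71-fold (log2 fold change 0.77 ± 0.06 SE, adjusted p = 2.1e-38, edgeR's quasi-likelihood test). Both Phf8 shRNA libraries were high and replicates lay close together. Of the Dtna exon sequence 0.532% is shared with an opposite-strand gene, and the exons of the other 7 genes are shared with none.

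In the rest of the dystrophin-associated complex, 13 of 14 genes were tested, of which 3 rose, 7 fell and 3 did not pass. Thus 76.9% were called, against 52.1% of all genes tested. Their median log2 fold change was -0.35, beside 0.01 over all genes tested. Of the gamma-syntrophin genes, Sntg2 fell 2.48-fold (11.9 and 11.9 CPM, against 28.6 and 30.5 CPM) and Sntg1 rose 2.40-fold at a low level (1.99 and 2.07 CPM, against 0.832 and 0.856 CPM). Sgcb, a sarcoglycan gene whose product helps to stabilise dystroglycan in muscle, fell 1.54-fold (50.6 and 51.0 CPM, against 78.1 and 78.5 CPM).

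Dystroglycan binds its ligands through sugar chains built by a series of glycosyltransferases, and these genes moved in both directions. Of 17 such genes 16 were tested, of which 2 rose and 4 fell (37.5%, against 52.1% of all genes tested), with a median log2 fold change of 0.06. Pomgnt2 rose 1.57-fold (11.98 and 13.1 CPM, against 8.48 and 7.38 CPM). Pomk, the kinase that acts on the same sugar chain, fell 1.29-fold (19.4 and 18.8 CPM, against 25.4 and 23.7 CPM), and Dpm3 fell 1.20-fold. DESeq2 called 2 of these genes, upper-quartile scaling called 9 (56.2%, against 54.4% of all genes under that scaling), and 3 were called without control replicate 1. B4gat1 was not tested at 0 to 3 reads a library, and 85.3% of its exonic length is shared with a gene on the same strand, so that its level is uncertain.

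Agrn (ENSMUSG00000041936, minus strand of chromosome 4, 156165290 to 156197488) encodes agrin, a heparan sulfate proteoglycan of basement membranes that binds dystroglycan. It had 291 and 288 CPM in Phf8 shRNA libraries, against 313 and 301 CPM in control libraries. The log2 fold change of -0.08 ± 0.06 (SE) did not pass (adjusted p = 0.22, edgeR's quasi-likelihood test), with a 95% interval of -0.20 to 0.03. Scaled by the library size alone, Agrn was called lower (-0.14, adjusted p = 0.012, edgeR's quasi-likelihood test). With upper-quartile scaling its log2 fold change was -8e-04 (adjusted p = 0.99, same test). Other genes of agrin signalling, of which 6 of 7 were tested, rose in 3 cases and fell in 1 (66.7% called, against 52.1% of all genes tested). Lrp4, the agrin receptor, rose 2.23-fold (151 and 146 CPM, against 69.5 and 64.1 CPM), and the adhesion gene Ncam1 rose 1.72-fold (247 and 248 CPM, against 146 and 142 CPM). Musk, the kinase that agrin activates at the muscle synapse, had 10 and 9 reads in Phf8 shRNA libraries and 90 and 75 in control libraries.

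The other matrix genes moved in both directions. In a list of 17 basement membrane genes and dystroglycan-binding neurexins, all 17 were tested, 7 fell, 5 rose and 5 did not pass (median log2 fold change -0.23). Thus 70.6% were called, against 52.1% of all genes tested. Lamc1, the gamma chain shared by most laminins, fell 2.35-fold (98.4 and 101 CPM, against 238 and 230 CPM). Hspg2, which encodes perlecan, fell 2.23-fold (12.3 and 13.4 CPM, against 30.1 and 27.1 CPM), the collagen IV gene Col4a1 fell 2.84-fold (11.4 and 12.4 CPM, against 34.5 and 33.0 CPM), and the nidogen gene Nid2 fell 5.38-fold (7.79 and 7.19 CPM, against 42.8 and 38.0 CPM). The laminin genes Lama5 and Lamb2, named after their values were seen, fell with log2 fold changes of -0.55 and -0.77. The neurexin genes Nrxn2 and Nrxn3, also named after their values were seen, rose with log2 fold changes of 1.07 and 0.61.

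**Figure D3:**
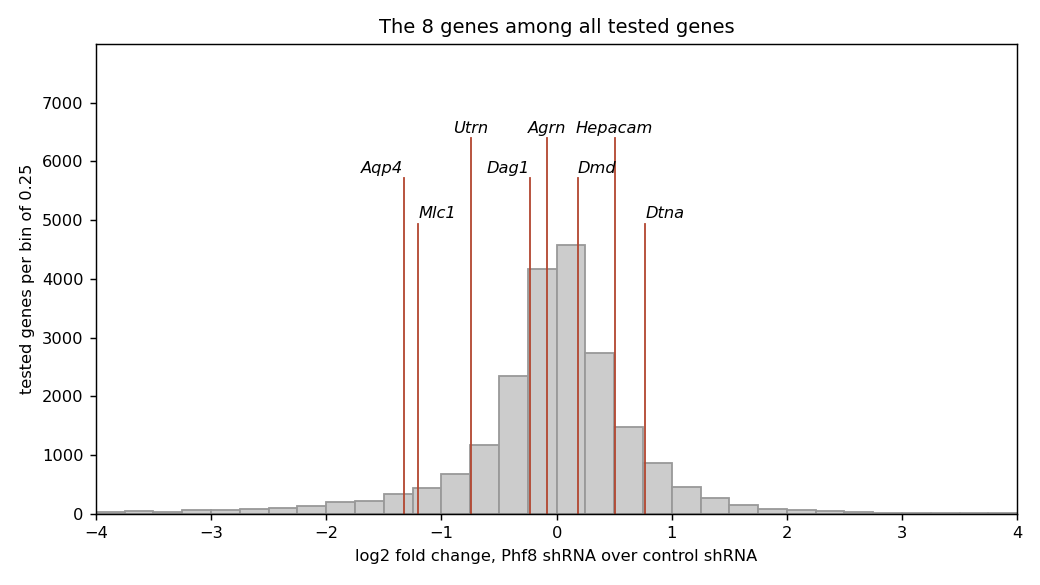
Distribution of log2 fold changes (Phf8 shRNA over control shRNA, bins of 0.25) over the 21042 tested genes, grey, with a red line at each of the 8 genes; the axis is cut at -4 and 4. Aqp4 (-1.33) and Mlc1 (-1.20) lie in the lower tail, and Dag1, Agrn and Dmd lie among the most populated bins.

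Levels can be set against each other only per length. In RPKM (CPM per kilobase, over the union of exons), Mlc1 was highest in Phf8 shRNA and control astrocytes (141 and 324 RPKM), followed by Aqp4 (85.4 and 215 RPKM) and Dag1 (55.9 and 65.6 RPKM). Hepacam and Agrn did not differ beyond their spread in Phf8 shRNA libraries (32.8 and 30.1 RPKM for Hepacam, 31.3 and 31.0 RPKM for Agrn). In control libraries Agrn stood above Hepacam (33.7 and 32.4 RPKM, against 22.5 and 21.9 RPKM). Dtna (28.3 RPKM with Phf8 shRNA and 16.6 RPKM with control shRNA), Utrn (9.41 and 15.8 RPKM in that order of groups) and Dmd (6.26 and 5.52 RPKM) were lowest. The order rests on the length used. Over the shortest annotated coding transcript Dmd would stand at 80.2 RPKM in Phf8 shRNA and 70.7 RPKM in control libraries, and Aqp4, whose transcripts run from 1106 to 5054 nt, at 481 and 1209 RPKM, above Mlc1.

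**Figure D4:**
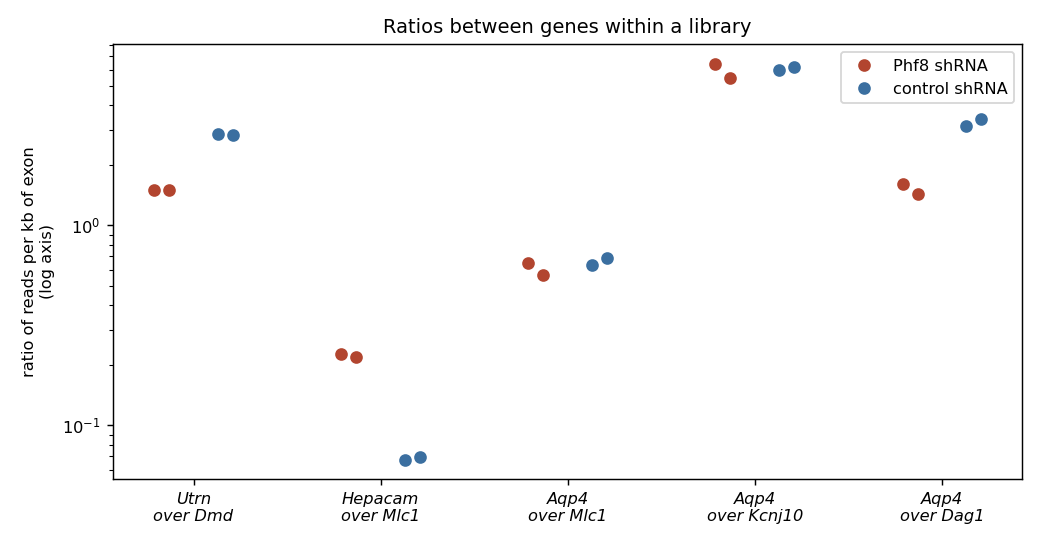
Ratios of reads per kilobase of exon between pairs of genes within each library (log axis), Phf8 shRNA in red left of control shRNA in blue; points are libraries. Utrn over Dmd and Aqp4 over Dag1 are lower and Hepacam over Mlc1 is higher in the Phf8 shRNA libraries, while Aqp4 over Mlc1 and Aqp4 over Kcnj10 overlap between groups.

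Among 8823 other protein-coding genes that averaged 10 CPM or more, the profiles closest to Aqp4 over the 4 libraries, by Euclidean distance of centred log2 CPM, were those of Orai3 (distance 0.050), Gpr37l1 (0.051) and Parp3 (0.059). Orai3 encodes a calcium channel subunit, Gpr37l1 a receptor of astrocytes and Parp3 an ADP-ribosyltransferase. Gpr37l1 had 31.6 and 26.9 CPM in Phf8 shRNA libraries, against 75.6 and 77.4 CPM in control libraries. The profiles closest to Agrn were those of Ppp1r9b, Sun1 and Cnpy3 (distances 0.011, 0.011 and 0.014). With 4 libraries in 2 groups, the profiles mostly describe the size of the group difference.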

How the data were processed

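RNA was sequenced from 4 samples, 2 per group. The labels' protocols name TruSeq Stranded Total RNA libraries with Ribo-Zero removal of ribosomal RNA. Per the submitters' processing notes, HISAT2, HTSeq and DESeq2 were named with build mm10. Tool versions, annotation and strand setting were not given in the sources used here, so how reads in overlapping exons were counted is not known. Deposited values are whole-number read counts per gene, without normalization, for 55421 genes, of which 55154 matched a symbol. GENCODE M21 (same build) gave exonic lengths and overlaps. Groups came from sample titles.

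The counts were fitted with edgeR 4.0.16 in R 4.3.3 (filterByExpr, TMM, quasi-likelihood, 2 groups, no covariate, two-sided, threshold 0.05), and the fit was tested on simulated data. Standard errors are the log2 fold change divided by the root of F. Alternatives were RLE, upper-quartile and library-size scaling, DESeq2 1.42.0, limma-voom (limma 3.58.1), other filters, a replicate block, a fixed coefficient of variation, leaving out the most abundant and mitochondrial genes, and leaving out each library. Depth makes counting error small for the 8 genes (2998 reads or more a library).

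The members, gene lists and naming rule were chosen with earlier results of these data known. Named beside the 8 genes and Phf8 were up to 4 called genes per list with the largest change and a mean of at least 1 CPM, 6 further partners, up to 3 abundant markers per cell type (not all are printed), and the 3 closest profiles to Aqp4 and Agrn. Some genes that this rule names are not reported here.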

Additional observations from a re-analysis of the deposited data

How the results depend on the processing

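Over 14 alternatives, no gene of the set changed direction, and Aqp4 (-1.47 to -1.20) and Mlc1 (-1.25 to -1.12) passed the test in each. With the biological coefficient of variation set to 0.2 (edgeR's likelihood ratio test), 3305 genes and 2 of the 8 were called, and Dtna (0.77, adjusted p = 0.051), Utrn (-0.75, adjusted p = 0.061), Hepacam (0.50), Dag1 (-0.23) and Dmd (0.18) no longer passed. That setting called 15.7% of all genes tested. It called 3 of 13 dystrophin complex genes, 6 of 17 matrix genes and neurexins, and 6 of 14 MLC1 partners. Of the other aquaporins it called 1 of 5, and of the agrin signalling genes 4 of 6, as many as in the quasi-likelihood test. It called 0 of 16 glycosylation genes (1 at an unadjusted p under 0.05, against 8 in the quasi-likelihood test and 3 in DESeq2). At an adjusted p under 0.05, the glycosylation genes called were 6 in the quasi-likelihood test, 2 in DESeq2 and 9 with upper-quartile scaling. DESeq2 called 0 other aquaporins (2 at an unadjusted p under 0.05, and 2 called by edgeR and by limma-voom), and a minimum of 10 reads in every library left 1. Scaled by library size alone, Agrn passed (-0.14), while upper-quartile scaling gave -8e-04. Leaving out each library gave Dmd log2 fold changes of 0.14 to 0.23, 3 to 6 glycosylation genes and 1 to 2 aquaporins, the low count of aquaporins being reached without control replicate 1 and without Phf8 shRNA replicate 1. Higher genes made up 47.7% of calls with TMM and 58.0% with upper-quartile scaling (6640 higher and 4811 lower), which shifted the median gene by 0.08. With library size alone the share was 40.3% (4335 higher and 6422 lower), with a shift of -0.05. Same-numbered libraries did not deviate together (r = 0.0077 across genes), so the numbers were not taken as pairs, and with the replicate number as a block 10929 genes and 7 of the 8 were called. The cause of these differences was not tested.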
